A study of Mus musculus with 165 samples.

Results

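The comparison set 18 livers of male mice aged 28 months against 17 livers of male mice aged 24 months. These 35 libraries were chosen by the age and tissue in their labels, out of 165 libraries of liver and brain in the series. Every mouse was a male of the inbred strain C57BL/6J/Ukj with no named treatment or genetic change, and the labels say that the animals were kept only for ageing. Extraction used QIAzol and chloroform, and stranded polyA TruSeq libraries were read in pairs of 100 bases. The labels put each library in 1 of 3 preparations, called preps here, with 5, 6 and 6 livers at 24 months and 7, 5 and 6 at 28 months in preps 1, 2 and 3. Each library is taken as 1 mouse of its age. The p-values of the main fits rest on a spread between mice that livers of all ages in the series share. They do not measure the spread between these 35 mice alone. The hour at which tissue was collected was not given in the sources used here.

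The 35 libraries held between 25059933 and 45164270 counts in genes. Levels are given in CPM, the field's unit of counts scaled to a common library total, which ranks a gene between livers but not against other genes. Albumin (Alb), the main secreted protein of hepatocytes, stood at 14020 CPM or more in every liver, with a median of 75140 CPM. Mitochondrial transcripts took a median of 4.82% of counts at 24 months and 4.38% at 28 months. Livers are written here as age and number, so that 24-13 is replicate 13 at 24 months. Some livers stood apart from the rest of the 35 across all tested genes. These were 24-13, 28-9, 28-14, 24-5 and 24-10, with the largest mean absolute log2 deviations from the median of the 35 livers, between 0.353 and 0.487. In bulk tissue, fewer cells of a type and less RNA per cell cannot be told apart.

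As background, the circadian clock is a feedback loop in which ARNTL and CLOCK (with its relative NPAS2) drive genes such as Per, Cry, Nr1d1 and Dbp, whose products repress or modulate the loop. In liver, the transcripts of Arntl and Dbp peak at opposite times of day, so their levels in a single sample depend on when it was taken. Growth hormone is also background here: males release it in pulses and females more evenly. The pulses keep a male pattern of liver genes on, including Hsd3b5, Slco1a1, Elovl3 and the major urinary proteins, and keep a female pattern off, including Cux2 and Cyp2a4.

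Between 24 and 28 months, 2385 of 15579 tested genes passed the test (15.3%). Of these, 963 were higher at 28 months (6.18% of tested genes) and 1422 were lower (9.13%), and 90 rose and 137 fell at least 2-fold. With voom and quality weights 4157 passed (2152 higher and 2005 lower), and in a fit of these ages alone 1152 passed (329 higher and 823 lower). The test was edgeR's quasi-likelihood test over all 83 livers with age and prep as terms, at a Benjamini-Hochberg adjusted p under 0.05. The median log2 fold change over all tested genes was 0.02. Of the 2385 genes, 1535 passed in every one of 35 fits that left out 1 liver. The count was 3615 without 24-13 (23.3% of tested genes, 11.3% higher and 12.0% lower), of which 2346 were among the 2385 (98.4% of the shorter list and 64.9% of the longer), and within preps it was 2520, 0 and 198 in preps 1, 2 and 3. In prep 2, where no gene passed, 2172 genes had an unadjusted p under 0.05.

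Clock genes differed between the ages. Of 5 tested genes that peak with Arntl, 4 were lower at 28 months and none was higher, and the list's median log2 fold change was -0.87. Of 8 tested genes that peak with Dbp, 6 were higher and none was lower, with a median of 1.29. Among 10 other clock genes 4 were higher and none was lower.

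Arntl, the transcription factor at the head of the loop, lay between 10.6 and 35.3 CPM at 24 months (median 26.6) and between 1.67 and 34.9 CPM at 28 months (median 14.2). In 8 of 18 livers at 28 months it was below every liver at 24 months, and the other livers overlapped. The log2 fold change was -0.87 (SE 0.22, adjusted p = 0.0038). Npas2, its partner, fell from a median of 8.73 to 3.01 CPM, by 1.40 on the log2 scale (SE 0.35, adjusted p = 0.0030). Nfil3, a repressor that competes with DBP for D-box sequences, ran from 26.2 to 87.7 CPM at 24 months and from 5.47 to 60.6 CPM at 28 months, and fell by 0.99 on the log2 scale (adjusted p = 0.00038), and 9 livers at 28 months were below all at 24 months. Clock itself was 53.5 and 39.0 CPM (adjusted p = 0.030), a call that was lost in 7 of the 35 fits that left out 1 liver: without 24-4, 24-9, 24-12, 28-7, 28-9, 28-11 or 28-16 the adjusted p rose to at most 0.066. In prep 2 alone its log2 fold change was 0.19. Cry1 did not pass, at medians of 11.3 and 8.27 CPM.

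Dbp, an activator of many liver output genes, lay between 0.508 and 29.6 CPM at 24 months (median 1.75) and between 1.13 and 166 CPM at 28 months (median 27.6). The log2 fold change was 3.26 (SE 0.70, adjusted p = 0.00047), and 9 livers at 28 months were above all at 24 months. Per3, a period gene, ran from 1.28 to 11.4 CPM at 24 months (median 2.79) and from 2.43 to 98.3 CPM at 28 months (median 15.0), a log2 fold change of 3.05 (SE 0.40, adjusted p = 1.3e-07). Ciart, a repressor of ARNTL and CLOCK, had medians of 0.373 and 5.71 CPM and a log2 fold change of 3.41 (SE 0.53, adjusted p = 3.9e-06). Tef and Hlf, relatives of Dbp, rose by 1.6 and 0.50 on the log2 scale, and the repressor gene Nr1d2 rose by 0.99. Nr1d1 and Bhlhe41 did not pass, with medians of 62.0 and 96.7 CPM for Nr1d1 and of 1.42 and 1.66 CPM for Bhlhe41. Per1, Per2, Cry2 and Bhlhe40 rose by 1.73, 0.96, 0.65 and 0.79 on the log2 scale. Rora, Csnk1d, Csnk1e and Fbxl21 did not pass.

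Promoters of 3 of these genes are shown because they carry matches to short letter patterns of the E-box, the D-box and the ROR element. These genes moved in opposite directions. Each line holds the 250 bases before the RefSeq start site in GRCm38.p6, 5′ to 3′ along the gene. Capitals mark the E-box CACGTG in Ciart (chr3:95882229-95882478, minus strand), the D-box pattern TTANGTAA in Per3 (chr4:151044666-151044915, minus strand) and the loose ROR pattern TNGGTCA in Arntl (chr7:113207215-113207464, plus strand). N stands for any base, so a match to TNGGTCA need not be a ROR element.
Ciart: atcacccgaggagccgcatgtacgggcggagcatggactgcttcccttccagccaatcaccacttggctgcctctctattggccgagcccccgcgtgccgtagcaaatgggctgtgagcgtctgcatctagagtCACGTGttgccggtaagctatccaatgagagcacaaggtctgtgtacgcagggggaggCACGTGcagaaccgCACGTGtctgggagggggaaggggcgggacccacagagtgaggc
Per3: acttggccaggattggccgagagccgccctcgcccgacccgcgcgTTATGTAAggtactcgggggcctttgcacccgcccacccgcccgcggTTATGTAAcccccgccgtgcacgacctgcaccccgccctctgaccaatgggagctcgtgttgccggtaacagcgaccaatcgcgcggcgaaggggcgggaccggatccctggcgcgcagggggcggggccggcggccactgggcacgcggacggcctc
Arntl: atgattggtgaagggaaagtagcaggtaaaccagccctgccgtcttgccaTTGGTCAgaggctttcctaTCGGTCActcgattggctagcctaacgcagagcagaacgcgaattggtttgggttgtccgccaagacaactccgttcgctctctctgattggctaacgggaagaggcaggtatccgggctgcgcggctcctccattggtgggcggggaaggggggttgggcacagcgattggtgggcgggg
The motifs were searched on both strands. Ciart held 3 E-boxes, starting at -116, -58 and -44 from the start site, and Per3 held 2 D-boxes at -205 and -158. Arntl held 2 matches to the ROR pattern at -200 and -181. Over all 32851 RefSeq promoters of this length, 6.02% held the E-box, 2.06% the D-box and 9.19% the ROR pattern. Of the 23 clock genes, 18 had a promoter among these, and 5 of them held an E-box (Cry1, Tef, Ciart, Bhlhe41 and Per1). A D-box was held by 1 (Per3) and the ROR pattern by 5 (Arntl, Nfil3, Tef, Per3 and Cry2). These matches are letters in a window and were not tested as binding sites.

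**Figure D1:**
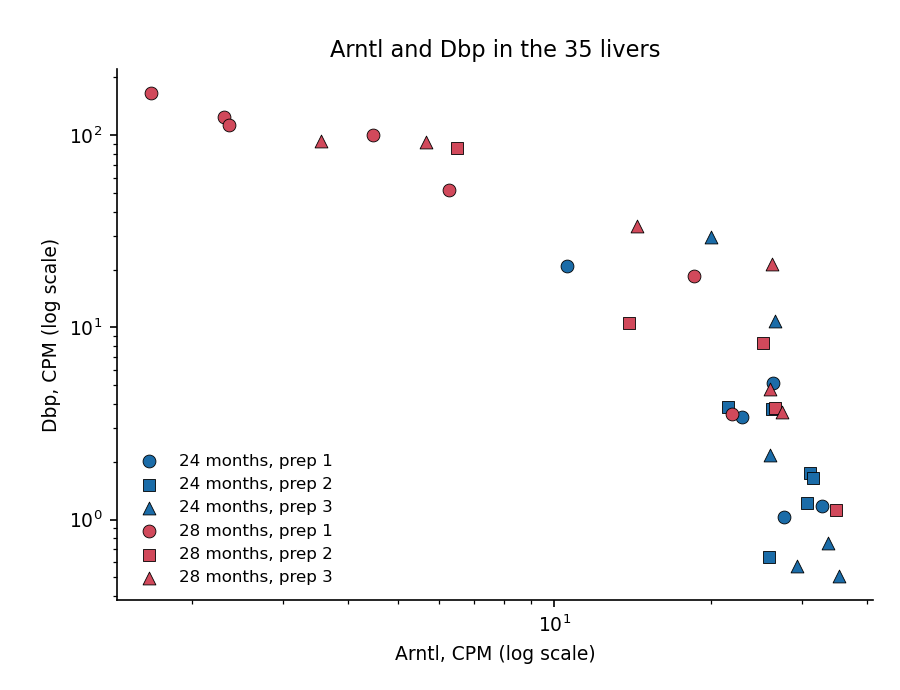
Levels of Arntl (x axis) and Dbp (y axis) in CPM on log scales in the 35 livers, with colour for age and symbol for prep. Livers of 24 months gather at high Arntl and low Dbp (medians 26.6 and 1.75 CPM), and livers of 28 months spread from there to low Arntl and high Dbp (medians 14.2 and 27.6 CPM).

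A clock gene score was taken for each liver as the mean z-score of the 5 genes of the Arntl side minus that of the 8 genes of the Dbp side. It ran from -1.79 to 1.86 at 24 months (median 0.669) and from -4.80 to 1.5 at 28 months (median -1.57). The score is a description of genes already seen to differ, and the mean difference between the ages was -2.35. Of the 18 livers at 28 months, 9 had scores below every liver at 24 months and 9 lay within the range at 24 months. Scores below -3 came from 8 livers, all at 28 months, of which 5 were in prep 1, 1 in prep 2 and 2 in prep 3. Median scores at 28 months were -3.47, -0.406 and -1.47 in preps 1, 2 and 3, against 0.233, 0.672 and 0.442 at 24 months.

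The score was also computed in the brains of the same mice. Across 17 mice at 24 months, liver and brain scores correlated with Pearson's r = 0.695 (permutation p = 0.0021, adjusted over 2 ages 0.0021) and Spearman's rho = 0.725 (permutation p = 0.0017). Across 18 mice at 28 months, r was 0.776 (permutation p = 0.00017, adjusted 0.00034) and rho was 0.775 (permutation p = 0.00022). Without the 2 livers farthest from the median, r was 0.730 at 24 months and 0.704 at 28 months. Within preps of at least 6 mice, r was 0.801 and 0.906 in preps 2 and 3 at 24 months, and 0.570 and 0.705 in preps 1 and 3 at 28 months. The hour of collection is not in the labels used here, and its part in the score was not tested.

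Of 11 tested output genes of the liver clock, 6 were higher at 28 months and none was lower (median log2 fold change 0.56). Usp2, a deubiquitinase gene, lay between 0.930 and 3.99 CPM at 24 months and reached 64.7 CPM at 28 months (medians 1.59 and 6.86). Its log2 fold change of 3.30 (SE 0.37, adjusted p = 1.4e-09) came with 9 livers above all at 24 months. Upp2, a uridine phosphorylase gene, rose from a median of 105 to 289 CPM (1.27 on the log2 scale, adjusted p = 7.4e-05). Wee1, which encodes a kinase that holds back mitosis, rose from 3.04 to 5.53 CPM (1.06 on the log2 scale, adjusted p = 0.00036). None of the 11 passed once the score was a term in the fit. With the score the change of Usp2 was 1.32 (SE 0.37, adjusted p = 0.054), and it passed in 12 of the 35 fits that left out 1 liver.

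With the clock gene score as a term, the age difference passed the test in 175 of 15579 genes (1.12%). Of these, 44 were higher (0.282% of tested genes) and 131 lower (0.841%) at 28 months. The balance of directions changed with the setting. Higher genes outnumbered lower ones under voom (1466 and 1191) and in prep 1 alone (911 and 274). They also did so without the 5 farthest livers (1208 and 754) and with no filter on low counts (205 and 169). Lower genes outnumbered higher ones with DESeq2 (218 and 17), in prep 3 alone (67 and 18) and without 24-13 (644 and 561). Of the 175, 173 were among the 2385 found without the score, which is 98.9% of the shorter list and 7.25% of the longer. At an unadjusted p under 0.05 there were 2118 genes. The sign held in 2364 of the 2385 genes (99.1%), while their median absolute log2 fold change went from 0.336 to 0.212 and their median standard error from 0.0896 to 0.102. The slope on the score itself passed in 1336 genes (8.58%), among them 679 of the 2385 (28.5%). Since the score was built from clock genes of these livers, its fit says nothing about those genes.

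The count of 175 depended on which livers were in the fit. It was 1205 without 24-13 (7.75% of tested genes), including 174 of the 175 (99.4% of the shorter list and 14.4% of the longer), then 387 without 28-10, 322 without 24-10 and 271 without 28-8. It was 44 without 24-11, 95 without 24-7, 96 without 24-16, 103 without 28-6, 104 without 24-3, 105 without 24-2, 24-5 or 24-12, 108 without 24-14 and 113 without 28-9. A fit on the 24- and 28-month livers alone gave 0, with 902 genes at an unadjusted p under 0.05, where DESeq2 over all ages gave 235. In all 35 fits that left out 1 liver, 28 genes kept the call, 3 higher and 25 lower. By this count, made after the values were seen, the 3 were Fmo2, Gm30211 and Igkv5-39. The 25 included Hsd3b5, Slco1a1, Elovl3, Serpina4-ps1, Mup3, Mup9, Mup12, Mup15, Mup19, Nudt7, Plin2, Pnpla7, Arsa, Lap3, Scp2 and Gapdh.

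Genes that are higher in male liver were lower at 28 months. Of 19 tested genes of this list, 16 were lower and none was higher, with a list median (log2) of -1.07 against 0.02 over all genes. Of all tested genes 9.13% were lower. With the clock gene score, 9 were lower (median -0.80), against 0.841% of all tested genes. With the score, 5 were lower without 24-5, and 10 without 24-13 (4.14% of all tested genes were then lower). All 19 had a negative log2 fold change, a direction that a list chosen with earlier results known cannot support on its own.

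Hsd3b5 (chr3:98618634-98630252; positions here are gene loci in GRCm38), a steroid dehydrogenase gene that is nearly specific to male liver, lay between 0.0803 and 211 CPM at 24 months with a median of 6.80 CPM. At 28 months it lay between 0.0489 and 48.0 CPM with a median of 0.235 CPM, and 17 of 18 livers were under 1 CPM, against 5 of 17 at 24 months. The log2 fold change was -4.13 (SE 0.71, adjusted p = 2.0e-05), and -3.56 with the score (SE 0.67, adjusted p = 0.0021). The exception at 28 months was 28-10, with 48.0 CPM, and without that liver the log2 fold change was -7.06. In preps fitted alone it was -7.68, -2.00 and -6.62.

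Slco1a1, an organic anion transporter gene (chr6:141907282-141946962), showed the same pattern, from 0.191 to 412 CPM at 24 months (median 71.5) and from 0.0248 to 144 CPM at 28 months (median 0.560). Its log2 fold change was -3.98 (SE 0.66, adjusted p = 1.0e-05), and -3.55 with the score (adjusted p = 0.00038). Elovl3, a fatty acid elongase gene named here after its values were seen, went from a median of 75.0 to 0.992 CPM (-2.99 on the log2 scale, adjusted p = 0.0010), with 28-10 at 405 CPM, and it was -4.58 without that liver. Cyp4a12a, a fatty acid hydroxylase gene also named afterwards, had medians of 37.4 and 3.03 CPM (-2.46 on the log2 scale, adjusted p = 0.00025). Nudt7, a peroxisomal hydrolase of coenzyme A, ran from 98.6 to 1029 CPM at 24 months and from 34.4 to 506 CPM at 28 months. All 18 livers at 28 months were below the median at 24 months, with a log2 fold change of -1.58 (SE 0.21, adjusted p = 2.0e-07) and of -1.28 with the score (adjusted p = 0.00077). Egfr, the epidermal growth factor receptor, was named afterwards: its medians were 544 and 219 CPM, and its log2 fold change was -1.11 in both fits (adjusted p = 0.00027, and 0.017 with the score, a call that was lost without 24-5 at an adjusted p of 0.077). Serpina4-ps1, a serpin pseudogene outside the list, fell by 3.97 on the log2 scale (adjusted p = 5.3e-06).

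Younger livers give the levels from which these genes departed. Hsd3b5 had medians of 215, 231 and 210 CPM at 3, 9 and 15 months, and Slco1a1 had medians of 532, 499 and 457 CPM. At 24 months the livers spread from levels close to those of young livers to levels under 1 CPM. The 5 livers of 24 months with Hsd3b5 under 1 CPM were 24-15, 24-6, 24-8, 24-5 and 24-10. Their summed levels of 27 acute phase genes were 45874, 125800, 132090, 217600 and 39647 CPM, against a median of 39647 CPM at 24 months, so 3 of the 5 were high and the others near the median. The part of that state in the result was not tested. 28-10, which kept a male pattern, also had the highest clock gene score at 28 months.

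The major urinary proteins (Mup genes), pheromone carriers that male liver secretes in bulk, fell as a group. All 20 tested genes of the family were lower at 28 months, with a list median (log2) of -2.00, and 11 of 20 were lower with the score (median -1.43). Over all tested genes the shares that were lower were 9.13% and 0.841%. With the score the number was 5 without 24-11 and 15 without 28-10. Mup3 ran from 209 to 5173 CPM at 24 months (median 1712) and from 80.3 to 2597 CPM at 28 months (median 406), a log2 fold change of -1.86 (SE 0.28, adjusted p = 2.8e-06). Mup7 had medians of 206 and 17.3 CPM (-3.29 on the log2 scale, adjusted p = 0.00018) and Mup15 had medians of 6.04 and 0.192 CPM (-3.75 on the log2 scale, adjusted p = 1.5e-05). Mup9, Mup12, Mup14 and Mup19 had log2 fold changes between -3.32 and -3.03. Mup20, the pheromone darcin, was named afterwards and fell by 1.93, with 28-10 at 1525 CPM against a median of 47.5 CPM at 28 months. The genes are near-identical copies, so how reads were shared between them is uncertain, and they are not independent of each other.

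Genes that are higher in female liver rose. Of 24 in the list 19 were tested, of which 13 were higher at 28 months and none was lower, with a list median (log2) of 1.6. Of all tested genes 6.18% were higher. The other 5 genes of the list did not pass the filter on low counts. With the clock gene score 5 of 19 were higher (median 1.01), against 0.282% of all tested genes. The number was 2 without 24-11 and 8 without 24-15. All 19 had a positive log2 fold change.

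Cux2 (chr5:121856366-122050102), a transcription factor of female liver, lay between 0.233 and 26.2 CPM at 24 months (median 0.670) and between 0.293 and 105 CPM at 28 months (median 31.4). In 9 of 18 livers at 28 months it was above all at 24 months, and the lowest was 28-10, at 0.293 CPM. The log2 fold change was 3.47 (SE 0.46, adjusted p = 1.7e-07) and 2.08 with the score (adjusted p = 0.026), a call lost without 24-11, 24-16 or 28-6 at adjusted p up to 0.088. With the score in prep 1 alone the change was -1.01, the opposite direction. Fmo2, a flavin monooxygenase gene, ran from 7.90 to 27.8 CPM at 24 months (median 10.7) and from 9.51 to 88 CPM at 28 months (median 37.1). With 11 livers above all at 24 months, its log2 fold change was 1.64 (SE 0.18, adjusted p = 7.1e-10), and 1.01 with the score (SE 0.20, adjusted p = 0.0032).

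Cyp2c69, a cytochrome P450 gene outside this list, went from 1.49 to 26.4 CPM (3.27 on the log2 scale, adjusted p = 3.0e-06), and with the score the change was 2.59 (adjusted p = 0.018, lost without 24-11 or 28-3 at adjusted p up to 0.0545). Cyp2a4, a female-biased steroid hydroxylase gene, had medians of 1.72 and 15.2 CPM (2.48 on the log2 scale, adjusted p = 6.5e-06). Its adjusted p with the score was 0.050, under the threshold before rounding, and the call was lost in 23 of the 35 fits that left out 1 liver. Slc22a26, an organic anion transporter gene, rose from 34.1 to 247 CPM (2.32 on the log2 scale, adjusted p = 7.7e-06, and 2.04 with the score, adjusted p = 0.018, lost without 24-11 at 0.0545). Cyp2c38, a P450 gene also outside the list, rose by 0.88 on the log2 scale, with 14 of 18 livers above all at 24 months. A1bg, a plasma glycoprotein gene of female liver, rose by 3.51 on the log2 scale, with 28-14 at 106 CPM against a median of 1.66 CPM at 28 months, and by 1.89 with 28-14 and 24-13 left out (adjusted p = 0.0073).

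**Figure D2:**
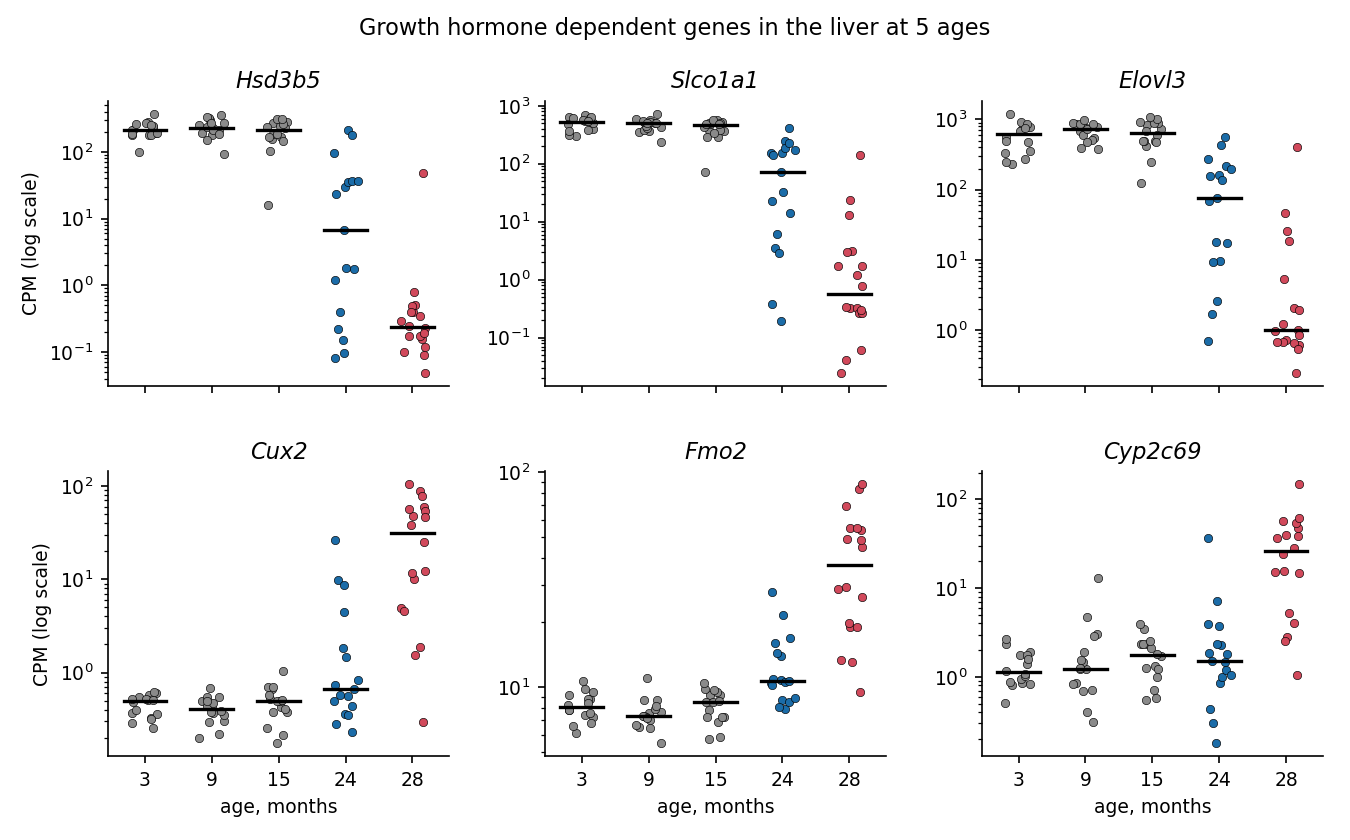
CPM on a log scale of 3 genes higher in male liver (top) and of Cux2, Fmo2 and Cyp2c69 (bottom) at 3, 9, 15, 24 and 28 months. Each point is a liver, bars are medians, and colour marks 24 and 28 months. Hsd3b5 fell to a median of 0.235 CPM at 28 months from 6.80 CPM at 24 months, and Cux2 rose to 31.4 CPM from 0.670 CPM.

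Of 18 tested genes of the receptor, its signalling and the IGF axis, 2 were higher (1 without 24-7) and 2 were lower, against 6.18% and 9.13% of all tested genes. Ghr, the growth hormone receptor, fell from 450 to 347 CPM (-0.31 on the log2 scale, adjusted p = 0.0034). Stat5a fell from 16.9 to 13.0 CPM (-0.37 on the log2 scale, adjusted p = 0.011), and Igfbp4 rose from 1080 to 1349 CPM (0.28 on the log2 scale, adjusted p = 0.012). Igf1, the main endocrine product of the pathway, did not pass, at 499 and 501 CPM, and neither did the signal transducer Stat5b, at 75.5 and 64.8 CPM, the feedback inhibitor Socs2, at 24.1 and 28.9 CPM, or the male-biased repressor Bcl6, at 28.4 and 10.7 CPM. None of the 18 passed with the score. Growth hormone in blood was not measured here.

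Genes of fatty acid synthesis were lower. Of 16 tested genes, 12 fell and none rose, with a list median (log2) of -0.71, against 9.13% of all tested genes lower. With the clock gene score none passed (median -0.51). When 24-13 was also left out 5 were lower, against 4.14% of all tested genes. Acly, which makes cytosolic acetyl-CoA, ran from 370 to 1105 CPM at 24 months (median 564) and from 96.2 to 631 CPM at 28 months (median 234). In 13 of 18 livers it was below all at 24 months (-1.08 on the log2 scale, SE 0.20, adjusted p = 8.9e-05), and with the score the change was -0.66 (SE 0.23, adjusted p = 0.13). Acacb, an acetyl-CoA carboxylase gene, fell from a median of 152 to 52.5 CPM, and Elovl5, an elongase gene, from 672 to 284 CPM. Scd1, the stearoyl-CoA desaturase, and Fasn, the fatty acid synthase, were named afterwards. Scd1 fell from a median of 16381 to 6120 CPM (-1.18 on the log2 scale, adjusted p = 0.00054) and Fasn from 958 to 537 CPM (-0.71 on the log2 scale, adjusted p = 0.0054). Srebf1, which encodes a transcription factor of these genes, did not pass, at 334 and 361 CPM.

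Of 26 tested cholesterol synthesis genes, 11 fell and none rose (median -0.37), against 9.13% of all tested genes lower. None passed with the score (median -0.45). When 24-13 was also left out 10 fell with the score, against 4.14% of all tested genes. Without the score the median was -0.60, -0.67 and 0.048 in preps 1, 2 and 3, so the direction turned in prep 3. Sc5d, a desaturase of the last steps, fell from 1033 to 675 CPM, with all 18 livers at 28 months below the median at 24 months (-0.63 on the log2 scale, adjusted p = 0.00041). Pmvk, the phosphomevalonate kinase, fell from 160 to 89.7 CPM, and Acat2, an acetyl-CoA acetyltransferase, from 151 to 89.9 CPM.

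Of 20 tested lipid droplet genes, 5 fell and 2 rose (median -0.19), against 9.13% and 6.18% of all tested genes. Plin2 (chr4:86648386-86670060), the main coat protein of hepatocyte lipid droplets, ran from 215 to 452 CPM at 24 months (median 306) and from 86.1 to 358 CPM at 28 months (median 184). In 14 of 18 livers it was below all at 24 months. It fell by 0.77 on the log2 scale (SE 0.12, adjusted p = 3.0e-06) and by 0.60 with the score (SE 0.13, adjusted p = 0.010). Plin3 fell by 0.32, and Plin4 rose by 1.14, from 2.65 to 4.24 CPM.

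Pnpla7 (chr2:24976033-25054057), a lysophospholipase gene, had the smallest p among genes that fell. Its level ran from 104 to 177 CPM at 24 months (median 133) and from 75.2 to 128 CPM at 28 months (median 96.5). All 18 livers at 28 months were below the median at 24 months and 14 were below the lowest. The log2 fold change was -0.51 (SE 0.07, adjusted p = 1.3e-07), and -0.44 with the score (SE 0.08, adjusted p = 0.00077). Preps fitted alone gave -0.69, -0.48 and -0.38.

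**Figure D3:**
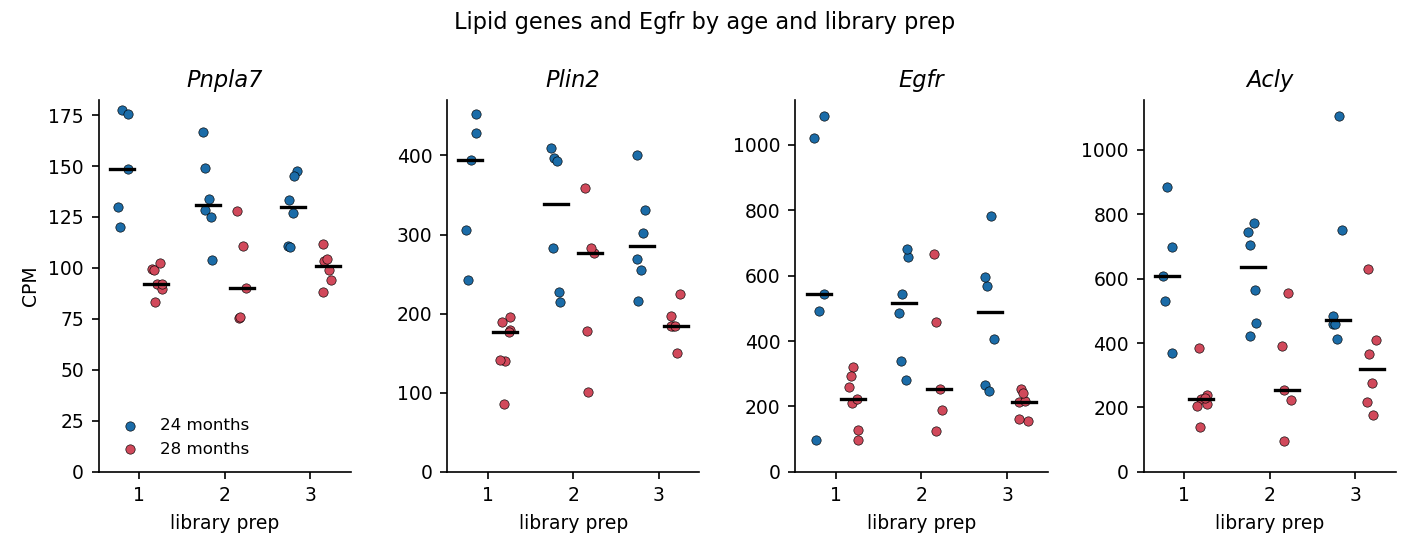
CPM of Pnpla7, Plin2, Egfr and Acly in each liver, by library prep (x axis) and age (colour), with bars for medians. In each prep the median at 28 months lay below that at 24 months for these 4 genes, and for Pnpla7 the overall medians were 133 and 96.5 CPM.

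Of 32 tested targets of PPARA, the receptor that turns on fatty acid oxidation, 3 were higher and 10 were lower (median -0.14), against 6.18% and 9.13% of all tested genes. With the score none passed (median -0.18), and 7 were lower when 24-13 was also left out (4.14% of all tested genes). Fabp1, the liver fatty acid binding protein, fell from 1433 to 701 CPM (-0.91 on the log2 scale, adjusted p = 0.00035). Cpt2, which passes acyl groups into mitochondria, fell from 114 to 76.8 CPM, with all 18 livers at 28 months below the median at 24 months. Acot4, an acyl-CoA thioesterase gene, rose from 49.3 to 72.0 CPM. Ppara itself did not pass, at 43.8 and 57.4 CPM. Of 11 fasting and gluconeogenic genes 1 was higher (3 without 24-8) and 2 were lower, against 6.18% and 9.13% of all tested genes. The coactivator gene Ppargc1a rose (11.2 to 13.5 CPM, a change of 0.66 in log2, adjusted p = 0.0055) and Pdk4, which brakes glucose oxidation, fell (27.4 to 11.4 CPM, a change in log2 of -0.94, adjusted p = 0.0076).

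In bile acid handling, 3 of 25 tested genes were higher (1 without 28-17) and 6 lower, against 6.18% and 9.13% of all tested genes. Abcc4, an efflux pump, rose from 4.33 to 9.22 CPM, with all 18 livers above the median at 24 months (0.88 on the log2 scale, adjusted p = 1.2e-05, and 0.65 with the score, adjusted p = 0.037). With the score its call was lost in 13 of the 35 fits that left out 1 liver. Hsd3b7, an early enzyme of bile acid synthesis, fell from 21.2 to 13.8 CPM. Cyp7a1, the rate-limiting enzyme, did not pass, at 62.4 and 108 CPM. Of 44 tested cytochrome P450 genes of families 1 to 3, 14 were higher and 9 lower. With the score 4 were higher (none without 24-11) and 2 lower (none without 24-5 and 6 without 24-13), against 0.282% and 0.841% of all tested genes. Of 20 glutathione transferase genes, which conjugate toxic compounds, 8 were lower and none higher (median -0.26), and with the score 2 were lower, or none without 24-11. Gstm6 fell from 137 to 78.4 CPM (-0.70 on the log2 scale, adjusted p = 4.6e-05), Gstp1 from 350 to 242 CPM and Gstm4 from 90.2 to 59.6 CPM.

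Of 38 tested proteasome genes, 20 were lower and none higher, with a list median (log2) of -0.13, against 9.13% of all tested genes lower. In preps 1, 2 and 3 the median was -0.21, -0.195 and -0.017, and 10, 0 and 0 were lower. With the score 1 was lower at a median of -0.13, against 0.841% of all tested genes. When 24-13 was also left out 13 were lower, against 4.14%. Psmd11, a lid subunit, fell from 106 to 78.8 CPM, with all 18 livers at 28 months below the median at 24 months and 13 below the lowest (-0.35 on the log2 scale, SE 0.06, adjusted p = 1.1e-05). Psmd2, of the base, fell by 0.25 on the log2 scale and Psma1, of the core, by 0.23. Of 18 heat shock genes 8 were lower (median -0.25, and 5 of 18 without 24-12), including the small chaperone gene Hspb1, from 16.5 to 9.38 CPM, and the mitochondrial chaperonin gene Hspd1, from 383 to 318 CPM. Of 26 genes of the endoplasmic reticulum folding machinery and its stress response 7 were lower (median -0.24, and 3 of 26 without 24-12), including Pdia6, from 289 to 220 CPM, and Canx, from 356 to 320 CPM. None of the heat shock or endoplasmic reticulum genes passed with the score (medians -0.16 and -0.23). When 24-13 was also left out 2 of each were lower, against 4.14% of all tested genes.

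Of 78 nuclear genes of the respiratory chain 9 were lower and none higher (median -0.12), near the 9.13% of all tested genes that were lower. The median was -0.23, -0.18 and 0.013 in preps 1, 2 and 3. The number was 5 without 24-7 and 31 without 24-13. Cox7a2, a cytochrome oxidase subunit, fell from 71.3 to 56.8 CPM (-0.33 on the log2 scale, adjusted p = 0.00030). None of 13 genes of the mitochondrial genome and none of 77 ribosomal protein genes passed. Among other genes with the smallest p, Lap3, an aminopeptidase gene, fell from 258 to 193 CPM (-0.43 on the log2 scale, SE 0.06, adjusted p = 1.7e-07, and -0.31 with the score, adjusted p = 0.0053). Arsa, the lysosomal arylsulfatase A, fell from 49.5 to 29.1 CPM (-0.70 on the log2 scale, SE 0.10, adjusted p = 7.5e-07, and -0.61 with the score, adjusted p = 0.0012). Alas2, the erythroid form of the first enzyme of haem synthesis, ran from 18.6 to 94.0 CPM at 24 months and from 4.22 to 102 CPM at 28 months, and fell (-1.11 on the log2 scale, adjusted p = 4.6e-05), and the other 4 tested red cell genes did not pass.

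**Figure D4:**
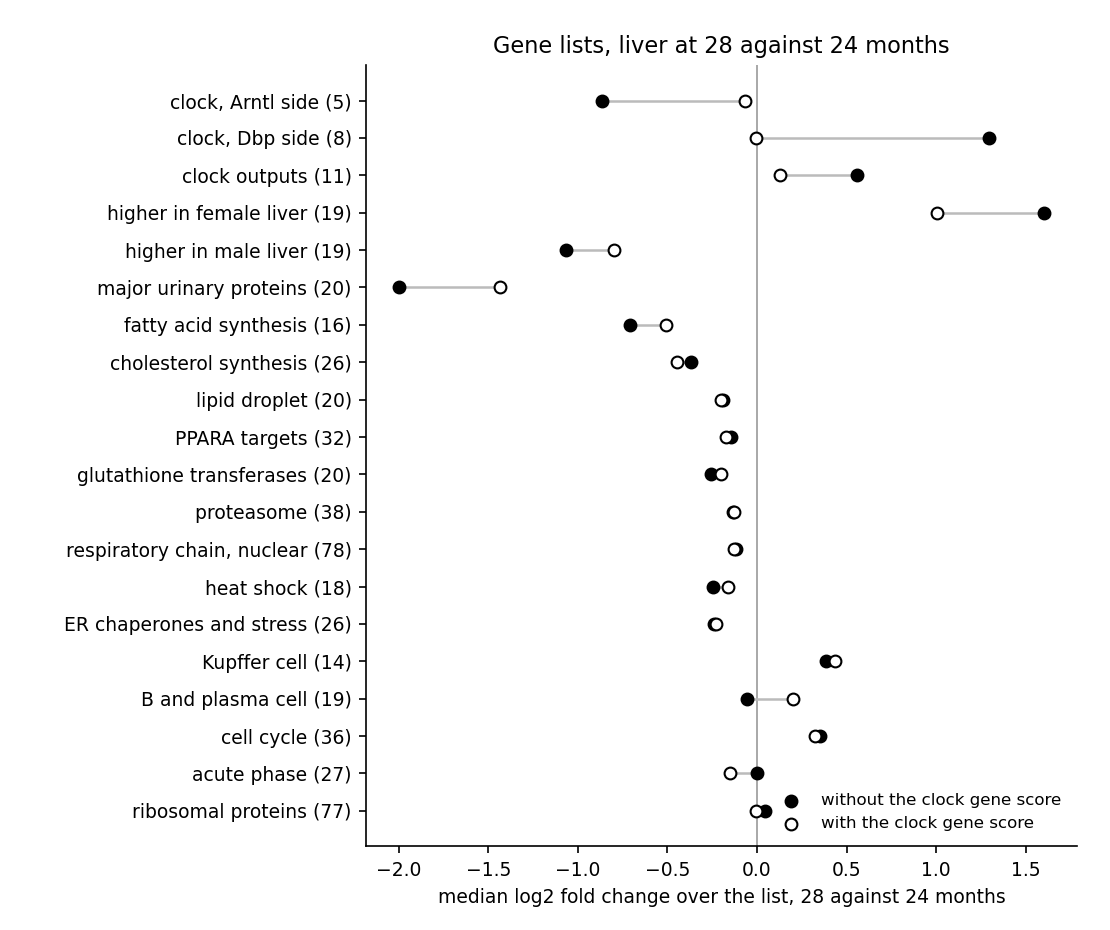
Median log2 fold change of 28 against 24 months over each gene list, with the number of tested genes in brackets, without (filled) and with (open) the clock gene score in the fit. The lists of the Arntl and Dbp sides, from which the score was made, moved to near 0 with it, while the male list (-1.07 and -0.80), the female list (1.6 and 1.01) and the major urinary proteins (-2.00 and -1.43) stayed away from 0.

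Of 14 tested genes of Kupffer cells, the resident macrophages, 4 were higher at 28 months and none was lower (median 0.39), and none of the 14 passed without 28-9, while 9 passed without 24-10 and 7 without 24-13. Of all tested genes 6.18% were higher, and 11.3% without 24-13. The list's median was 0.89, -0.084 and 0.30 in preps 1, 2 and 3. The summed level of these genes ran from 784 to 2516 CPM at 24 months (median 1146) and from 835 to 6111 CPM at 28 months (median 1623), with 28-9 highest and the next liver at 3147 CPM. Marco, a scavenger receptor, had medians of 25.9 and 55.1 CPM and reached 929 CPM (1.61 on the log2 scale, adjusted p = 0.014, lost without 28-9 or 28-1 at adjusted p up to 0.0815). Timd4 and Vsig4, both receptors of resident macrophages, rose by 0.64 and 0.52 on the log2 scale, and neither passed without 28-9 (adjusted p = 0.059 and 0.085). In prep 2 alone Timd4 was at -0.054. In a list of 11 lipid-associated macrophage genes 1 was higher (4 without 24-10 and 0 without 28-9) and 2 were lower (1 without 24-5), against 6.18% and 9.13% of all tested genes. Of these, Lyz2, a lysozyme gene, rose by 0.56, a call also lost without 28-9 (adjusted p = 0.078). Spp1, osteopontin, fell by 0.99, a call lost without 24-5 (adjusted p = 0.059), in which it was at its highest of 492 CPM. None of the Kupffer genes passed with the score.

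B cell and plasma cell genes showed no call in the 35 livers. Of 19 tested, none passed (median -0.06). Their summed level ran from 276 to 4053 CPM at 24 months (median 373) and from 152 to 2145 CPM at 28 months (median 394), and the highest was 24-13, against 1368 CPM in the next liver of its age. Without 24-13, 3 of 19 were higher at 28 months (median 0.74), and 10 of 19 were higher with the score (median 1.12). With all livers, and without the score, the median was 1.67, -2.13 and 0.54 in preps 1, 2 and 3. The background without 24-13 was 11.3% of tested genes higher, and 3.61% with the score. In 24-13 a single heavy chain segment, Ighv1-52, held 96.9% of the heavy chain V level, and a single kappa segment, Igkv1-117, at 583 CPM, held 98% of the kappa V level. In the other 34 livers the largest segment held a median of 15.8% and 17.0%, and at most 90.8% and 87.1%.

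Of 81 tested immunoglobulin segments, 5 were higher and 3 lower, no more than the 6.18% and 9.13% over all tested genes. With the score 3 were higher and 1 lower, against 0.282% and 0.841% of all tested genes. When 24-13 was also left out 5 were higher and 1 lower, against 3.61% and 4.14%. Igkv13-84 had medians of 0.179 and 0.194 CPM and reached 67.5 CPM in 28-4, without which its call was lost (adjusted p = 0.51). Igkv5-39, which passed in all 35 fits that left out 1 liver, had medians of 0.799 and 1.41 CPM, with 5 livers at 28 months above all at 24 months and a highest level of 59.9 CPM (2.60 on the log2 scale, adjusted p = 0.00050, and 3.46 with the score, adjusted p = 0.0011). Igkv1-117 changed by -2.26 on the log2 scale (adjusted p = 0.013), which was -0.04 with 24-13 and 28-14 left out.

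Tox, a nuclear factor of T cells, was the T and cytotoxic cell gene that passed, 1 of 21, against 6.18% of all tested genes higher. The number was 2 without 24-13 (11.3% of all tested genes higher), 5 without both 24-13 and 28-14 (11.6%) and 11 without the 5 farthest livers (12.6%). It lay between 2.54 and 7.61 CPM at 24 months (median 5.01) and between 5.34 and 20.5 CPM at 28 months (median 8.46). All 18 livers at 28 months were above the median at 24 months and 14 were above the highest (0.76 on the log2 scale, SE 0.12, adjusted p = 5.6e-06, and 0.40 with the score, adjusted p = 0.11). Among 19 chemokine genes 2 were higher (1 without 28-7 and 3 without 24-13) and 1 lower, against 6.18% and 9.13% of all tested genes. Cxcl13, a B cell attractant, rose from 17.1 to 69.6 CPM (1.17 on the log2 scale, adjusted p = 0.023, lost without 28-7 at 0.0505). Cxcl14 reached 92.0 CPM at 24 months and 9.67 CPM at 28 months with medians of 3.38 and 3.91 CPM, and its log2 fold change of -1.84 (adjusted p = 0.00011) had the opposite sign to the difference of medians. With the score its call was lost without 24-5 (adjusted p = 0.54). Under voom its log2 fold change was positive with and without the score, as given in the last section.

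**Figure D5:**
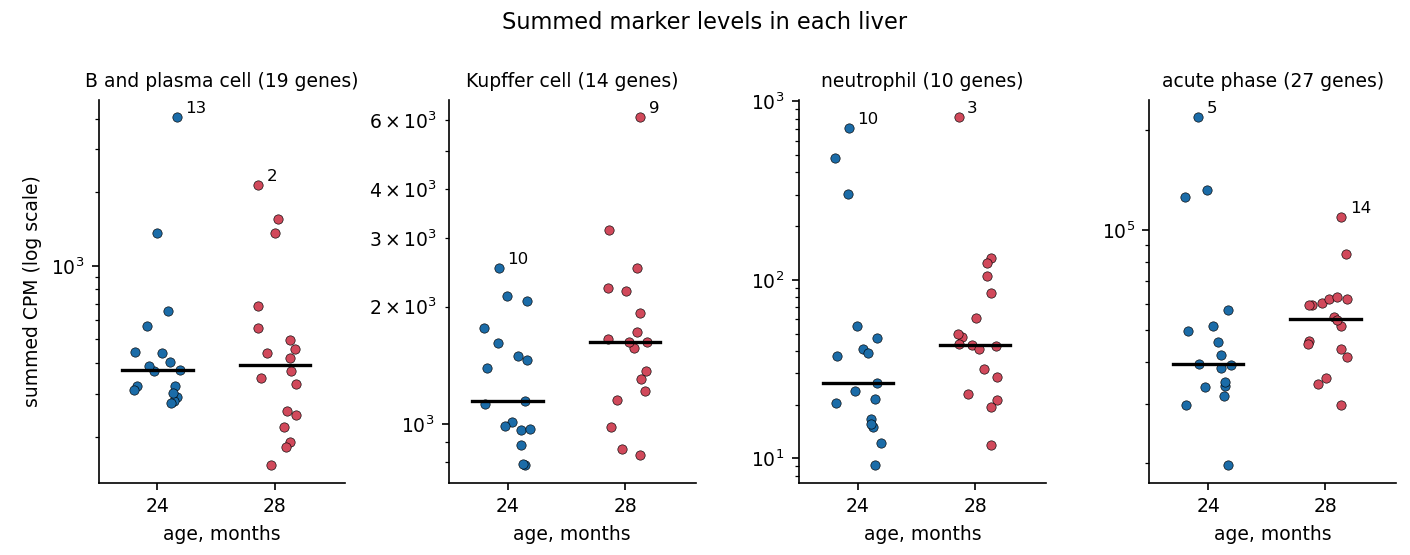
Summed CPM on a log scale of B and plasma cell, Kupffer cell, neutrophil and acute phase genes in each liver at 24 and 28 months, with bars for medians and the number of the highest liver of each age. The highest B cell sum (4053 CPM) was 24-13 and the highest Kupffer sum (6111 CPM) was 28-9.

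Several lists held no called gene: 27 acute phase, 16 interferon gamma GTPase, 16 class I and 9 class II histocompatibility and 10 neutrophil genes. Without 24-13, 3 class I genes and 1 class II gene were higher, against 11.3% of all tested genes. Without the 5 farthest livers 6 interferon gamma GTPase and 6 class I genes were higher, against 12.6% of all tested genes. In prep 1 alone 3 GTPase genes were higher, against 1346 of 15529 tested genes. Of the acute phase genes, 2 were higher without 24-5, 2 were lower without 28-14 and 4 were lower without both 24-13 and 28-14. Of all tested genes, 1014 of 15571 were higher without 24-5, 9.4% were lower without 28-14 and 12.1% were lower without both. Acute phase sums ran from 19602 to 217600 CPM at 24 months and from 29722 to 109100 CPM at 28 months, so both ages held livers with high levels. Of 36 cell cycle genes all had a positive log2 fold change and 2 were called (median 0.35), with 7 called without 24-13 and 1 without 24-12, against 6.18% of all tested genes higher and 11.3% without 24-13. Their median was 1.55, -0.36 and -0.05 in preps 1, 2 and 3, so the direction rested on prep 1. Of 24 complement genes 2 were higher (5 without 24-5 and 1 without 28-9) and 6 lower, against 6.18% and 9.13% of all tested genes, and the 3 of these with the smallest p were C8b (218 to 148 CPM), Mbl1 (172 to 122 CPM) and C4a (44.6 to 21.4 CPM). C4a shares near-identical sequence with its neighbour C4b. Of 33 collagen genes 2 were lower, and 4 without 28-14, against 9.13% and 9.4% of all tested genes.

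Of 17 urea cycle and amino acid genes 2 were higher and none lower (1 higher and 1 lower without 28-13), against 6.18% and 9.13% of all tested genes. Asl, the argininosuccinate lyase, rose from 367 to 497 CPM (0.68 on the log2 scale, adjusted p = 0.00023). Among 14 glucocorticoid-responsive genes 3 were higher, against 6.18% of all tested genes. They were Per1, the chaperone gene Fkbp5, from 30.5 to 88.7 CPM, and the kinase gene Sgk1, from 27.3 to 36.0 CPM. Of 17 cell cycle inhibitors and p53 targets 1 was higher, against 6.18% of all tested genes. Without 24-5, 2 were higher and 1 lower, against 1014 and 1395 of 15571 tested genes. The 1 gene was Cdkn1c, from 2.29 to 4.14 CPM (0.92 on the log2 scale, adjusted p = 7.7e-05). Cdkn1a did not pass.

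A single liver carried several large fitted rises. In 28-14 Cpe, which processes peptide hormones, was at 123 CPM against medians of 0.660 and 0.757 CPM at 24 and 28 months, and Hdc, which makes histamine, was at 213 CPM against 3.08 and 4.22 CPM. Aplp1, a gene of neurons named afterwards, was at 73.3 CPM there. Cpe changed by 2.57 on the log2 scale (adjusted p = 0.00053) and Hdc of 1.56 (adjusted p = 0.0031), and with 28-14 and 24-13 left out they were -0.09 and 0.06 (adjusted p = 0.77 and 0.80). In 28-14 Alb was at its lowest, 14020 CPM.

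The change from 24 to 28 months in liver was set against the same change in the brain. In a model of both tissues, the age difference differed between liver and brain in 851 of 14035 genes (6.06%), 394 more positive in liver (2.81%) and 457 more negative (3.26%). With edgeR's relative log expression (RLE) scaling the split was 336 and 631. For Dbp the brain's log2 fold change was 0.29 (adjusted p = 0.98) and the difference was 2.96, and for Cux2 the brain's was -0.21 (adjusted p = 0.97) and the difference 3.66. Arntl did not pass the test of the difference. The prep by age interaction in the liver passed in 0 of 15228 genes (edgeR's quasi-likelihood test), with 1355 at an unadjusted p under 0.05. It also passed in 0 genes with RLE scaling.

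An earlier interval with no liver in common, 15 against 3 months, had 1140 called genes, 7.32% of those tested. Of the 2385 genes, 137 were among them (5.74% of the 2385 and 12.0% of the 1140), a share no higher than that over all tested genes, and 65 of these changed in the same direction. Slc22a26 and Cyp2a4 were among those that had already risen by 15 months, by 2.13 and 1.51 on the log2 scale (adjusted p = 0.00099 and 0.024), while Hsd3b5, Slco1a1, Plin2 and Pnpla7 did not pass in that interval.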

How the data were processed

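RNA was sequenced from 165 liver and brain samples, and the values used are the raw read counts per gene that the authors deposited, not normalized. Per the submitters' processing notes, the tools were cutadapt 2.8, HISAT2 2.1.0, SAMtools 1.9 and featureCounts of Subread 2.0.1, on GRCm38.p6 (mm10). The annotation release and the strand setting of the counting are not given in the sources used here. Of 55471 gene identifiers, 55230 matched GENCODE M21, which gave symbols and positions.

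Counts were tested with edgeR 4.0.16 and limma 3.58.1 in R 4.3.3: after TMM scaling and the filter of filterByExpr (grouped by age), a quasi-likelihood model of age and prep was fitted to all 83 livers, so that all 5 ages share an estimate of the spread. A second fit added the clock gene score. Further fits tested tissue by age with the brain, and prep by age in the 35 livers. Genes passed at a Benjamini-Hochberg adjusted p under 0.05 over all tested genes. Standard errors were derived from each log2 fold change and its F statistic. Alternatives used DESeq2 1.42.0, voom, other scalings and filters, each prep alone and leaving out each liver. The scripts were tested on simulated data.

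Genes were named by a rule: the 8 highest and 8 lowest fold changes among called genes of at least 1 CPM with the same direction in 3 preps (in both fits), the 4 smallest p-values in each direction, all clock genes, and up to 3 called genes of each list. Some genes that the rule names are not reported here. Other named genes are marked as chosen after their values were seen. The members and lists were chosen with earlier results of these data known.

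Without a stated strand setting, reads of genes that overlap on opposite strands cannot be told apart. This touches A1bg, Acot4, Alas2, Arntl, Arsa, Bhlhe40, Cdkn1c, Cry2, Cyp2a4, Dbp, Elovl3, Hsd3b7, Hspd1, Pdia6, Plin4, Stat5a, Tef, Tox and Usp2. Acot4, Hsd3b7 and Spp1 also overlap a gene on their own strand. Counts of near-identical families (Mup, Cyp2a, Cyp2c, Cyp4a, Gst and immunoglobulin segments) are uncertain for single members.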

Additional observations from a re-analysis of the deposited data

Results flagged for a closer look

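The change from 24 to 28 months differed between liver and brain in 51 of the genes named here, by the tissue by age term of edgeR's quasi-likelihood test at an adjusted p under 0.05. Each value below is the log2 fold change in liver minus that in brain, so a positive value means that the change was more positive in liver. Genes that were not tested in the model of both tissues, among them Hsd3b5, Slco1a1 and Elovl3, have no such value.

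In the clock and its outputs, the differences of Dbp, Ciart, Per3, Tef, Hlf, Nr1d2, Per1, Per2, Cry2 and Bhlhe40 were 2.96, 2.89, 2.96, 1.58, 0.55, 0.86, 1.51, 0.96, 0.55 and 0.77. Those of the Arntl-side genes Npas2 and Nfil3 were -1.35 and -0.75. For the output genes Usp2, Upp2 and Wee1 they were 3.23, 1.36 and 1.17.

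Among growth hormone dependent and related genes, Cux2, Fmo2, Nudt7, Egfr, Ghr and Igfbp4 differed by 3.66, 1.19, -1.69, -0.93, -0.39 and 0.33. Lipid genes Acly, Acacb, Elovl5, Fasn, Scd1, Sc5d, Pmvk and Acat2 differed by -1.08, -1.32, -0.77, -0.71, -1.25, -0.53, -0.84 and -0.81. For lipid storage and oxidation, Plin2, Plin3, Pnpla7, Cpt2, Ppargc1a and Pdk4 differed by -0.56, -0.47, -0.69, -0.48, 0.66 and -0.96.

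The proteasome and glutathione transferase genes Psmd11, Psmd2, Psma1, Gstm6, Gstp1 and Gstm4 differed by -0.34, -0.34, -0.24, -0.66, -0.74 and -0.56. The values of Lap3, Arsa, Abcc4 and Asl were -0.31, -0.66, 0.87 and 0.54. For the immune genes C4a, Tox, Cxcl14 and Spp1 they were -1.17, 0.81, -1.77 and -1.17. The differences of Cpe and Hdc were 2.47 and 1.44. The liver changes of both rest on liver 28-14, as given in the report, and the tissue by age term was not fitted without that liver.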

How the results depend on the processing

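The count of 2385 genes was 1152 with the 24- and 28-month livers alone, 4157 with voom and quality weights (2152 higher and 2005 lower), 0 in prep 2 and 198 in prep 3. It lay between 1886 (without 24-12) and 3615 (without 24-13) when 1 liver was left out. Chosen after seeing the data, leaving out 24-13 and 28-14 gave 3673, and leaving out the 5 farthest livers gave 3893. The count of 175 with the clock gene score was 374 with no filter on low counts, 0 with those ages alone (902 at an unadjusted p under 0.05), 2657 with voom (1466 higher and 1191 lower), 1185 in prep 1, 0 in prep 2 (1518 at an unadjusted p under 0.05), 85 in prep 3, 105 with 2 principal components of clock genes and 19 with a score slope for each age. It was 971 without the 2 livers, 1962 without the 5, and between 44 (without 24-11) and 1205 (without 24-13) when 1 liver was left out. DESeq2 gave 17 higher and 218 lower. The tissue by age count of 851 was 520 with mouse as a random effect in voom and 108 with the score by tissue. The cause of these shifts was not tested.

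Replicate numbers are shared between the ages, but the pairing check gave correlations of -0.449 to 0.327 over 17 pairs (median -0.167), with 3 over 0.1, and 2 of 34 livers correlated best with their own number, so the numbers do not pair the mice. With the replicate block the counts were 2140 and 36.

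Without the score, Cpe was -0.090 without the 2 livers, -0.013 without the 5 and between -0.077 and 2.69 when 1 was left out. Hdc was -0.060 in prep 3, Igkv1-117 was 1.58 in prep 1 and 0.31 without the 5, Clock was 0.19 and Timd4 -0.054 in prep 2, and Cxcl14 was 0.15 with voom. With the score, in prep 1 alone A1bg was -0.42 and Cux2 -1.01, in prep 2 alone Spp1 was 0.066 and Abcc4 -0.024, Igkv1-117 was 0.083 without the 5, and Cxcl14 was 0.28 with voom. All of these are log2 fold changes of the opposite sign to the reported value, and their cause was not tested. Of the other values of named genes, 4511 kept direction and side of the threshold without the score and 220 kept only the direction. With the score, 1531 kept both, 41 newly passed and 242 no longer passed. Depth limits genes at a few CPM, such as Mup15 and the immunoglobulin segments.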
